A study of Mus musculus with 6 samples.

Results

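The genes described here belong to the BMP, TGF-beta and activin signaling pathway. They were measured in colon RNA of mice made deficient in HDAC1 and HDAC2 in intestinal epithelial cells (IEC) and of control mice. Members were chosen by their names: Bmp, Tgfb, Tgfbr, Smad, Gdf, Grem or Ltbp followed by a number, any symbol that begins with Bmpr, Inhb or Acvr, and Id1, Id2, Id3, Id4, Nog, Chrd, Chrdl1, Fst, Smurf1, Smurf2, Eng and Inha. This gave 58 genes of the 18193 on the array, measured by 123 probe sets. Where a gene had several probe sets, the values are those of the one whose mean signal was highest. A number was read as ending the symbol, so Bmp8a, Bmp8b, Bmp2k and Tgfb1i1 were left out.

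The HDAC1/2 IEC-specific deficient mice came from floxed Hdac1 and Hdac2 mice crossed with villin-Cre mice and are labelled as HDAC1/2 KO. The control mice are labelled as wild type. There were 3 arrays in each group, and the study's methods name 3 mice in each group. The sample titles do not give the number of mice for an array. The villin promoter drives Cre in the intestinal epithelium, so that muscle, connective tissue, vessel and immune cells keep both genes. All mice were untreated and, by the study's text, 4 months old, and the sources used here do not say whether control mice carried floxed alleles. The extraction protocol and the methods describe total colon RNA, although the sample labels speak of epithelium. Values are log2 signals, so that a difference of 1 is 2-fold, and a gene was called higher or lower at an adjusted p under 0.05 in limma, with p adjusted over all 45037 probe sets tested.

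BMPs, TGF-betas and activins are secreted dimers that bind pairs of type I and type II serine/threonine kinase receptors. The activated receptors phosphorylate Smad proteins, Smad2 and Smad3 after TGF-beta or activin and Smad1, Smad5 and Smad9 after BMP, which join Smad4 and enter the nucleus. In the colon, stromal cells near the crypt base release BMP antagonists, BMP activity is higher towards the surface where epithelial cells differentiate, and TGF-beta restrains epithelial growth and mucosal immune responses.

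The Id genes, which encode inhibitors of DNA binding, and Smad6 are classical targets of BMP signaling. The promoters of Id2, Id3, Id4 and Smad6 are shown because these genes are read as an output of the pathway and all 4 were called, a choice made after their values were seen. Id1, which was also called, had no promoter sequence among those available here. Each sequence is the stretch of 250 bases before the RefSeq start site in GRCm38.p6, on the strand of the gene. Capitals mark matches, on either strand, to GGCGCC, a GC-rich element to which BMP Smads bind, and to CAGAC, which reads GTCTG on the other strand and is the core of the Smad box.
Id2, chr12:25096093-25096342, minus strand: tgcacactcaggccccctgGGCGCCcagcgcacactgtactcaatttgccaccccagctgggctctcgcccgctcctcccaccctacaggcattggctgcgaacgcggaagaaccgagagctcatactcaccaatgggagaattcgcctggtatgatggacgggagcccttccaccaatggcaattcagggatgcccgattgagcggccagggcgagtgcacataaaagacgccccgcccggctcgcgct
Id3, chr4:136143572-136143821, plus strand: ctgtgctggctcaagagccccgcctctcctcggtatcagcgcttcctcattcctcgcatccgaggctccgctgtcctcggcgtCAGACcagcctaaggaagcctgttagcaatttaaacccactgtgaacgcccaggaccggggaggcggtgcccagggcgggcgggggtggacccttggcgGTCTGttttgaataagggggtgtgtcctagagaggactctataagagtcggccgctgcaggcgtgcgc
Id4, chr13:48260866-48261115, plus strand: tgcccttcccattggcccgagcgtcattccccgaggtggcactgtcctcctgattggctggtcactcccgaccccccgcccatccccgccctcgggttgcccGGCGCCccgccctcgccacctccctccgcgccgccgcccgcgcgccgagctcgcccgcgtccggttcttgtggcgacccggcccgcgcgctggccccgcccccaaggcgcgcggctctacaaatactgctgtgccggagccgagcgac
Smad6, chr9:64022060-64022309, minus strand: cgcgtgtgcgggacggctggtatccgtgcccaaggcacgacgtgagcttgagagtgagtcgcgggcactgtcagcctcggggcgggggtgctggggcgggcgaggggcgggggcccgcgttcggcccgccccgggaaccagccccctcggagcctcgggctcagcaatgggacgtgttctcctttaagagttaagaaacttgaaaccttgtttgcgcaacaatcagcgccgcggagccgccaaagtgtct

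The Id2 and Id4 windows each held a GGCGCC, starting at -231 and -148 from the start site, and the Id3 window held a CAGAC box at -167 and at -68. No match overlapped another in these windows. The Smad6 window held neither motif. A RefSeq window was matched for 42 of the 58 members, in 51 windows. Members with several windows, such as Ltbp4 and Smad5, were counted by window. Members without a window included Fst, Tgfb3, Bmp2, Chrdl1, Smad4 and Smad7. GGCGCC was present in 12 of these 51 windows (23.5%), against 9.59% of all 32851 promoter windows of the same length. It was in 2 of 10 windows of members that were higher (20%), in 8 of 19 windows of members that were lower (42.1%) and in 2 of 22 windows of members without a call (9.09%). The median GC content of the windows ran alongside, at 62.8%, 72% and 57.4% in these sets, against 52.4% over all windows. CAGAC was in 23 of 51 member windows (45.1%), against 42.2% of all windows. It was in 40% of windows of higher members, 42.1% of lower and 50% of uncalled ones. A match describes the letters of a window and is not a measured binding site.

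Among the 58 members, 11 were higher and 20 were lower in HDAC1/2 deficient than in control colon, and 27 did not pass the test. Over all 18193 genes, 21.9% were higher and 28.4% were lower, so that calls in either direction were about as frequent among the members as on the whole array. The groups did not overlap on any array for 39 members, against 60.9% of all genes. More than 2-fold changes were seen for 3 members, which were follistatin (Fst) and Id2 among the higher and Tgfb3 among the lower, whereas 4.07% of all genes changed by this much. The median log2 fold change was -0.042 for the members and -0.022 for all genes, and the median absolute change was 0.15 and 0.17. Members with a mean signal below the lowest array median, 6.78, numbered 13, of which 2 were called higher and none lower, while 9 of the other 45 were higher and 20 lower. Signals near the bottom of the scale carry background, which compresses fold changes of dim genes. The count of higher members was 6 without control replicate 1 or 3, where 3675 and 3673 of all 18193 genes were higher. It was 7 without each of the deficient arrays, where 3502 to 3767 of all genes were higher. In these fits higher calls were less frequent among the members than over all genes.

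**Figure D1:**
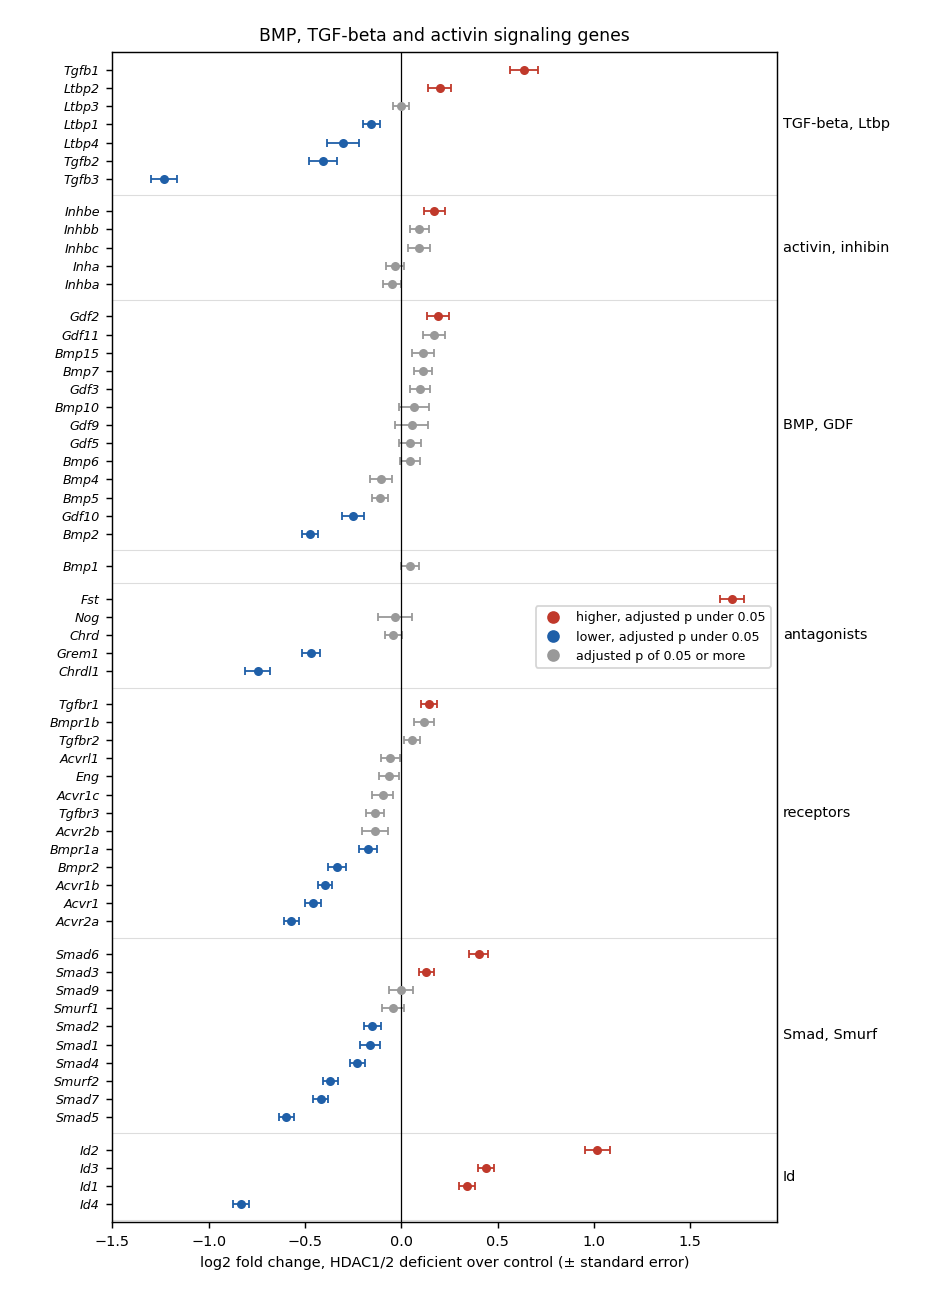
Log2 fold change (HDAC1/2 deficient over control) of the 58 members with its standard error from limma, grouped by role and ordered by size, with red, blue and grey for higher, lower and uncalled genes. Fst at 1.72 and Id2 at 1.02 lie farthest to the right and Tgfb3 at -1.23 farthest to the left.

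The arrays were close to each other within a group, with correlations of 0.9984 to 0.9988 across probe sets, against 0.9824 to 0.9828 between groups. Hdac1 was lower in deficient colon (log2 fold change -1.30, limma adjusted p = 1.06e-06), and Hdac2 did not pass the test (0.046, adjusted p = 0.475). It is not known here whether the Hdac2 probe set lies in the deleted part. By immunofluorescence, the study found no HDAC1 in the mutant epithelium but patchy HDAC2, still present in some crypts and villi. Xist, which is transcribed in female cells, was at 12.01, 11.99 and 12.06 on deficient arrays, against 12.88, 12.85 and 12.81 on control arrays. The Y-linked Eif2s3y was at 8.32, 8.49 and 8.22 on deficient arrays, against 3.84, 4.31 and 4.11 on control arrays. Both were thus high on every deficient array, which RNA of 1 mouse would not give, and whether RNA of several mice was mixed is not stated, so that the deficient arrays may not be 3 separate mice. Sex-linked RNA and genotype cannot be told apart. All 11 epithelial markers were bright, with means of 11.2 to 14.7, and 5 of them were higher and 2 lower. Markers of other tissues moved as well. All 10 smooth muscle genes were lower (log2 fold changes -0.69 to -0.13), and their summed log2 level was 16.02 to 16.04 on deficient and 16.33 to 16.34 on control arrays. Myeloid genes were higher in 6 of 7 cases (summed 13.92 to 13.96 against 13.32 to 13.35 in control), T cell genes in 5 of 6 (10.47 to 10.53 against 9.72 to 9.83) and B cell genes in 5 of 5 (12.79 to 12.84 against 12.18 to 12.20). Fibroblast genes were split, with 3 of 9 higher and 4 lower, and endothelial genes were lower in 6 of 9 and higher in 1. Enteric glia and neuron genes were lower in 3 of 7 and higher in 0 (summed 10.08 to 10.18 against 10.27 to 10.35 in control). Pancreatic acinar enzymes were higher in 5 of 5 (summed 14.35 to 14.38 against 8.31 to 8.59), and squamous genes were lower in 7 of 8 (11.30 to 11.31 against 13.71 to 13.73). In RNA of a whole tissue, fewer cells of a type and less RNA per cell cannot be told apart, and the part of these markers in the results below was not tested.

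The 3 TGF-beta ligands did not move together. Of the 7 TGF-beta and latent TGF-beta binding protein genes, 2 were higher (28.6%), 4 lower (57.1%) and 1 uncalled. Over all genes, 21.9% were higher and 28.4% lower. Tgfb3, the isoform best known from palate and epithelial development, had log2 signals of 7.51, 7.28 and 7.29 in HDAC1/2 deficient colon, against 8.58, 8.63 and 8.56 in control colon. Every deficient array lay more than 1 log2 unit below every control array, and the gene fell by 1.23 on the log2 scale (standard error 0.069, limma adjusted p = 8.16e-06), which is 2.35-fold. Tgfb1, the main TGF-beta of immune and stromal cells, was at 7.18, 7.39 and 7.29 in deficient colon, against 6.61, 6.76 and 6.57 in control colon. The groups were apart on all arrays, at a log2 fold change of 0.64 (standard error 0.072, adjusted p = 2.85e-04). The dimmer of its probe sets had a log2 fold change of -0.088 and did not pass (adjusted p = 0.186), and the mean over both was 0.27. The study also reported increased Tgfβ in mutant colon by qPCR, with no isoform named. Tgfb2 was lower (-0.41, standard error 0.074, adjusted p = 0.0032), and 3 of its 4 probe sets were called lower, at -0.36 to -0.49. Most myeloid, T cell, B cell and pancreatic markers rose on the arrays where Tgfb1 rose. Where Tgfb2 and Tgfb3 fell, smooth muscle (10 of 10), squamous (7 of 8), endothelial (6 of 9) and enteric glia and neuron (3 of 7) markers were lower. The summed level differed by -0.32 for smooth muscle and -2.42 for squamous markers. It differed by -0.13 for endothelial and -0.18 for enteric glia and neuron markers. No marker set was tested for a part in these changes.

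Latent TGF-beta binding proteins hold the inactive TGF-beta complex in the extracellular matrix. Ltbp4 (-0.30) and Ltbp1 (-0.16) were lower and Ltbp2 (0.20) was higher, with limma adjusted p of 0.0218, 0.0247 and 0.0281. All 3 calls were small and were lost when some arrays were left out: Ltbp4 passed in 3, Ltbp2 in 2 and Ltbp1 in 1 of the 6 fits without an array, with adjusted p up to 0.0843. Ltbp3 showed no difference beyond its error (8.09e-04, standard error 0.041), although the dimmest of its 4 probe sets was called higher (0.22).

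The Id genes all passed the test, with 3 higher and 1 lower. Id2, which is also a regulator of lymphoid cell development, was at 11.08, 10.88 and 11.06 in HDAC1/2 deficient colon, against 9.98, 9.93 and 10.04 in control colon. The deficient arrays were all higher, by 1.02 on the log2 scale (standard error 0.064, limma adjusted p = 1.40e-05) or 2.03-fold, and all 3 probe sets of the gene rose, at 0.37 to 1.02. Id3, expressed in many dividing cells, was at 10.88, 10.92 and 10.84 in deficient and 10.44, 10.43 and 10.44 in control colon. Id1, the member most often used as a readout of BMP signaling, was at 12.79, 12.85 and 12.78 in deficient and 12.47, 12.47 and 12.46 in control colon. Neither gene had overlapping groups, and the log2 fold changes were 0.44 for Id3 (adjusted p = 1.05e-04) and 0.34 for Id1 (adjusted p = 3.93e-04). Id4, known from neural and mammary precursor cells, went the other way. It was at 10.45, 10.46 and 10.39 in deficient colon, against 11.27, 11.26 and 11.26 in control colon. All deficient arrays lay below all control arrays, and the gene fell by 0.83 (standard error 0.041, adjusted p = 4.32e-06), with its other 2 probe sets at -0.56 and -0.78. The 4 Id calls held without any 1 of the arrays.

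**Figure D2:**
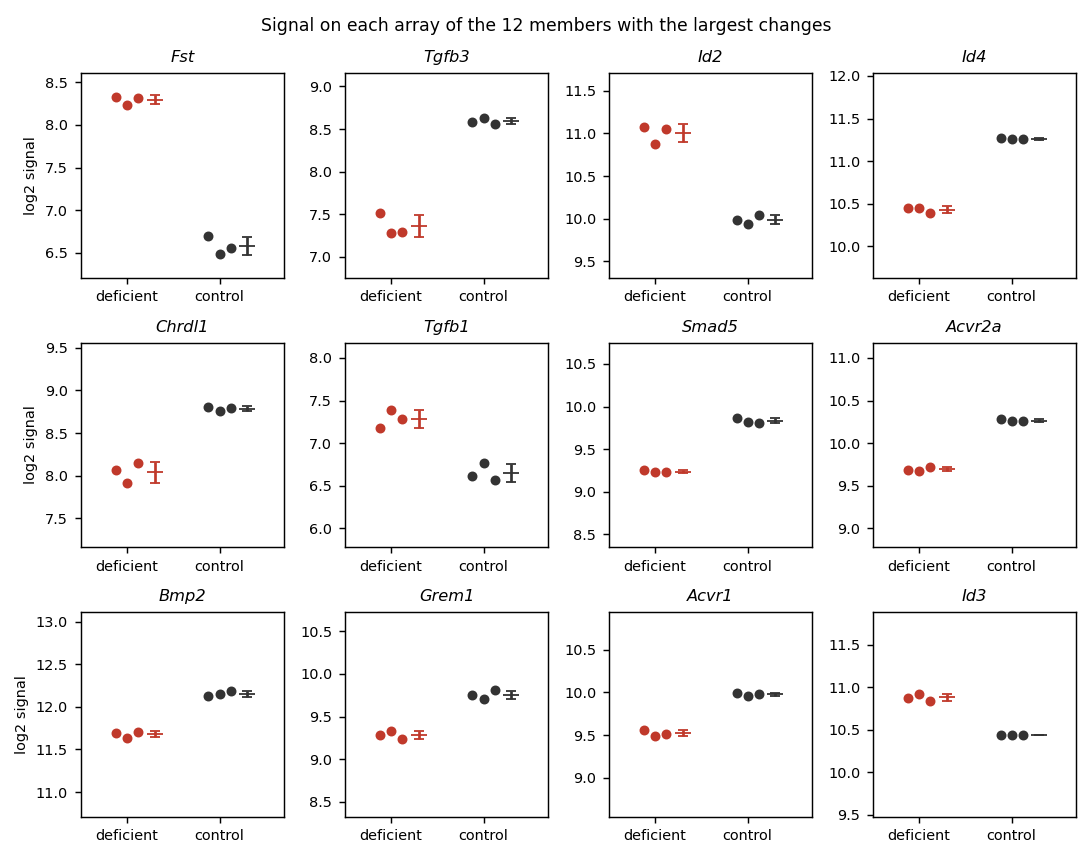
Log2 signal on each array for the 12 called members with the largest changes and no overlap, with HDAC1/2 deficient arrays in red on the left, control arrays in black on the right, and the mean ± SD (n = 3) beside the points. Each panel has its own log2 range, all of the same height, and the groups do not meet in any of them.

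Among the 5 secreted antagonists, Fst rose, Grem1 and Chrdl1 fell, and Nog and Chrd had no call. Fst, which binds activin and, less tightly, some BMPs, was at 8.33, 8.24 and 8.32 in HDAC1/2 deficient colon, against 6.69, 6.48 and 6.56 in control colon. Its groups were apart by more than 1 log2 unit on all arrays, and the fold change was 3.29 (1.72 on the log2 scale, standard error 0.062, limma adjusted p = 1.12e-06). The other probe set also rose, by 0.65. Chrdl1, a relative of chordin that binds BMP4, was at 8.06, 7.91 and 8.15 in deficient and 8.81, 8.75 and 8.79 in control colon. Grem1, the gremlin made by stromal and muscle cells around the crypt base, was at 9.29, 9.33 and 9.24 in deficient and 9.75, 9.71 and 9.81 in control colon. Both genes were lower on all deficient arrays, Chrdl1 by 0.75 (standard error 0.065, adjusted p = 7.01e-05) and Grem1 by 0.47 (standard error 0.047, adjusted p = 1.48e-04). Of the 4 Chrdl1 probe sets, 2 were called lower and the other 2, at -0.25 and -0.090, did not pass. All 10 smooth muscle markers fell on the same arrays, while fibroblast markers were split, with 3 of 9 higher and 4 lower. A part of either marker set in these changes was not tested. Nog, which encodes noggin, was dim, at 5.16, 5.43 and 5.11 in deficient and 5.21, 5.34 and 5.24 in control colon, and its groups overlapped (-0.031, standard error 0.087, adjusted p = 0.816). The Nog signal lay below the median of every array.

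Of 13 BMP and GDF ligands, 1 was higher (7.69%), 2 lower (15.4%) and 10 uncalled, against 21.9% higher and 28.4% lower over all genes. The ligand counts leave out Bmp8b and Bmp8a, whose symbols end in a letter. Bmp8b was higher, at 7.87, 7.91 and 7.85 in deficient and 7.26, 7.44 and 7.31 in control colon (0.55, limma adjusted p = 1.83e-04). Bmp8a was uncalled (0.044, limma adjusted p = 0.676). Bmp2, made by epithelial cells of the upper crypt and by stroma, was the brightest of them and was at 11.70, 11.64 and 11.71 in HDAC1/2 deficient colon, against 12.12, 12.15 and 12.18 in control colon. All deficient arrays were lower, and the gene fell by 0.47 (standard error 0.043, limma adjusted p = 8.68e-05). Bmp4, a stromal ligand, was at 9.19, 9.23 and 9.11 in deficient and 9.24, 9.23 and 9.38 in control colon, with overlapping groups (-0.10, standard error 0.058, adjusted p = 0.203). Bmp7, best known from kidney and bone, was at 8.04, 7.95 and 7.93 in deficient and 7.83, 7.86 and 7.88 in control colon. The Bmp7 groups did not overlap, but the difference of 0.11 did not pass (adjusted p = 0.0921), although another of its 3 probe sets was called higher at 0.34. Gdf10, a BMP3-like ligand, was lower (-0.25, adjusted p = 0.00883). Gdf2, the liver ligand also called BMP9, was higher by 0.19 (adjusted p = 0.0339), and passed in 1 of the 6 fits without an array. Gdf11, a ligand close to myostatin, was just short of the threshold (0.17, adjusted p = 0.0510) and passed in 1 of the 6 fits without an array. The other 7 uncalled ligands, among them Bmp5, Bmp6 and the oocyte ligands Bmp15 and Gdf9, had log2 fold changes between -0.11 and 0.11. Bmp1, which is a procollagen protease and no ligand, was at 0.046 (adjusted p = 0.513).

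Of the 5 activin and inhibin subunits, with means of 5.74 to 7.35, 1 was called, and Inhbe, Inhbc and Inha lay below the lowest array median. Inhba, the subunit of activin A, was at 7.27, 7.22 and 7.21 in HDAC1/2 deficient and 7.25, 7.35 and 7.24 in control colon. The Inhba groups overlapped (-0.049, standard error 0.047, limma adjusted p = 0.461). Inhbe, a subunit known from liver, was higher by 0.17 (adjusted p = 0.0421), a call that was kept in 1 of the 6 fits without an array, where adjusted p reached 0.130. Inhbb, the subunit of activin B, was at 0.093 (adjusted p = 0.185), while the dimmer of its 2 probe sets was called higher at 0.29. Inhbc was at 0.092 and Inha, the inhibin subunit, at -0.034, and neither passed.

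Of the 13 receptors and coreceptors, 1 was higher (7.69%), 5 lower (38.5%) and 7 uncalled, against 21.9% higher and 28.4% lower over all genes. Genes named as activin receptors (Acvr) made up 3 of the lower receptors, a grouping by symbol and not by the ligands they serve. Acvr2a, a type II receptor for activin and some BMPs, was at 9.69, 9.68 and 9.72 in HDAC1/2 deficient colon, against 10.28, 10.26 and 10.26 in control colon. Acvr1, a type I receptor also called ALK2, was at 9.56, 9.49 and 9.52 in deficient and 9.99, 9.96 and 9.98 in control colon. Both genes had groups that lay well apart, at log2 fold changes of -0.57 for Acvr2a (standard error 0.039, limma adjusted p = 2.12e-05) and -0.46 for Acvr1 (standard error 0.041, adjusted p = 7.94e-05). Acvr1b, the activin type I receptor ALK4, fell by 0.40 (adjusted p = 1.19e-04).

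Probe sets of the same receptor did not always move alike. The dimmer Acvr2a probe set was at -0.14 and did not pass, and the dimmer Acvr1b probe set was at 0.044 (limma adjusted p = 0.640). The 3 Acvr1 probe sets were called lower (-0.46 and -0.27) and, for the dimmest, higher (0.22). Acvr1c, the nodal and activin receptor ALK7, was uncalled by its brightest probe set (-0.096, adjusted p = 0.213), whereas the other 2 were called lower at -0.71 and -0.78. All 3 Acvr1c probe sets had signals below the median of every array.

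Of the genes named as BMP receptors (Bmpr), those with a call were lower. Bmpr2, the BMP type II receptor, was at 11.18, 11.18 and 11.12 in HDAC1/2 deficient colon, against 11.53, 11.52 and 11.43 in control colon. Bmpr1a, the type I receptor mutated in juvenile polyposis, was at 11.02, 10.97 and 10.91 in deficient and 11.16, 11.14 and 11.11 in control colon. Neither gene had overlapping groups, and the differences were -0.33 for Bmpr2 (standard error 0.046, limma adjusted p = 7.71e-04) and -0.17 for Bmpr1a (standard error 0.046, adjusted p = 0.0198). The Bmpr1a call was kept in 4 of the 6 fits without an array, and 2 of its 6 probe sets were called lower. Bmpr1b was dim and uncalled (0.12, adjusted p = 0.119).

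The TGF-beta receptors moved little. Tgfbr1, the type I receptor, was at 10.84, 10.89 and 10.91 in HDAC1/2 deficient and 10.74, 10.76 and 10.71 in control colon. The difference of 0.14 passed (standard error 0.041, limma adjusted p = 0.0262) without overlap, but was kept in 2 of the 6 fits without an array, and the mean over its 3 probe sets was -0.0023. Tgfbr2, the type II receptor that is often mutated in colorectal tumours, was at 11.60, 11.61 and 11.60 in deficient and 11.59, 11.53 and 11.54 in control colon. All deficient values of Tgfbr2 were above the control values, yet the difference of 0.055 did not pass (standard error 0.040, adjusted p = 0.335). Endoglin (Eng), an endothelial coreceptor, was at 8.70, 8.79 and 8.65 in deficient and 8.73, 8.79 and 8.82 in control colon. The Eng groups overlapped (-0.064, adjusted p = 0.375), though its dimmer probe set was called lower at -0.19, as were 6 of the 9 endothelial markers. Betaglycan (Tgfbr3), another coreceptor, was just short of the threshold (-0.13, adjusted p = 0.0540), while its dimmer probe set was called higher at 0.22. Acvrl1, the endothelial type I receptor, and Acvr2b were uncalled at -0.057 and -0.14.

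Among the 10 Smad and Smurf genes, 2 were higher (20%), 6 lower (60%) and 2 uncalled, against 21.9% higher and 28.4% lower over all genes. Smad5, a BMP Smad, was at 9.25, 9.23 and 9.23 in HDAC1/2 deficient colon, against 9.87, 9.82 and 9.81 in control colon. Every deficient array lay below every control array, and the gene fell by 0.60 (standard error 0.040, limma adjusted p = 1.93e-05). The other 2 Smad5 probe sets were at -0.21, which was called, and -0.11, which was not. Smad4, the partner of all receptor Smads, was at 12.34, 12.34 and 12.33 in deficient and 12.58, 12.58 and 12.55 in control colon. Its groups were apart by a small but even step of -0.23 (standard error 0.038, adjusted p = 0.0021), another of its 3 probe sets was called lower at -0.24, and the dimmest was at 0.041 and did not pass.

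The Smads of the TGF-beta and activin branch shifted by little. Smad2 was at 9.63, 9.60 and 9.61 in HDAC1/2 deficient and 9.81, 9.75 and 9.73 in control colon. Smad3 was at 10.39, 10.38 and 10.35 in deficient and 10.24, 10.26 and 10.23 in control colon. Each had groups without overlap, in opposite directions, at -0.15 for Smad2 (standard error 0.042, limma adjusted p = 0.0245) and 0.13 for Smad3 (standard error 0.039, adjusted p = 0.0323). Neither call held throughout when arrays were left out. The Smad3 call was lost in all 6 fits without an array, with limma adjusted p of 0.0560 to 0.107. Another Smad3 probe set was called higher at 0.28 (limma adjusted p = 0.0275), and 1 at 0.0016 did not pass. The Smad2 call was lost in 4 of the 6 fits, while the other Smad2 probe set was called higher at 0.13. Smad1, another BMP Smad, was lower by 0.16 (adjusted p = 0.0387) and passed in 1 of the 6 fits, and its other 2 probe sets, both at -0.12, did not pass. Smad9 was dim and showed no difference beyond its error (-0.0015, standard error 0.063).

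The inhibitory Smads, which are themselves induced by the pathway and block it, moved in opposite directions. Smad7, which inhibits both branches, was at 9.70, 9.67 and 9.73 in HDAC1/2 deficient colon, against 10.13, 10.09 and 10.12 in control colon. Smad6, which inhibits mainly the BMP branch and is given on each array because its promoter is shown above, was at 9.94, 9.84 and 9.89 in deficient and 9.55, 9.45 and 9.46 in control colon. In both genes the groups were apart on all arrays, at -0.42 for Smad7 (standard error 0.041, limma adjusted p = 1.19e-04) and 0.40 for Smad6 (standard error 0.048, adjusted p = 3.68e-04). The second Smad7 probe set fell by 0.56. Smurf2, a ubiquitin ligase that works with Smad7 to remove receptors, was lower by all 3 of its probe sets (-0.37, adjusted p = 2.39e-04 for the brightest, and -0.20 and -0.22 for the others). Smurf1 was uncalled (-0.043, adjusted p = 0.619).

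**Figure D3:**
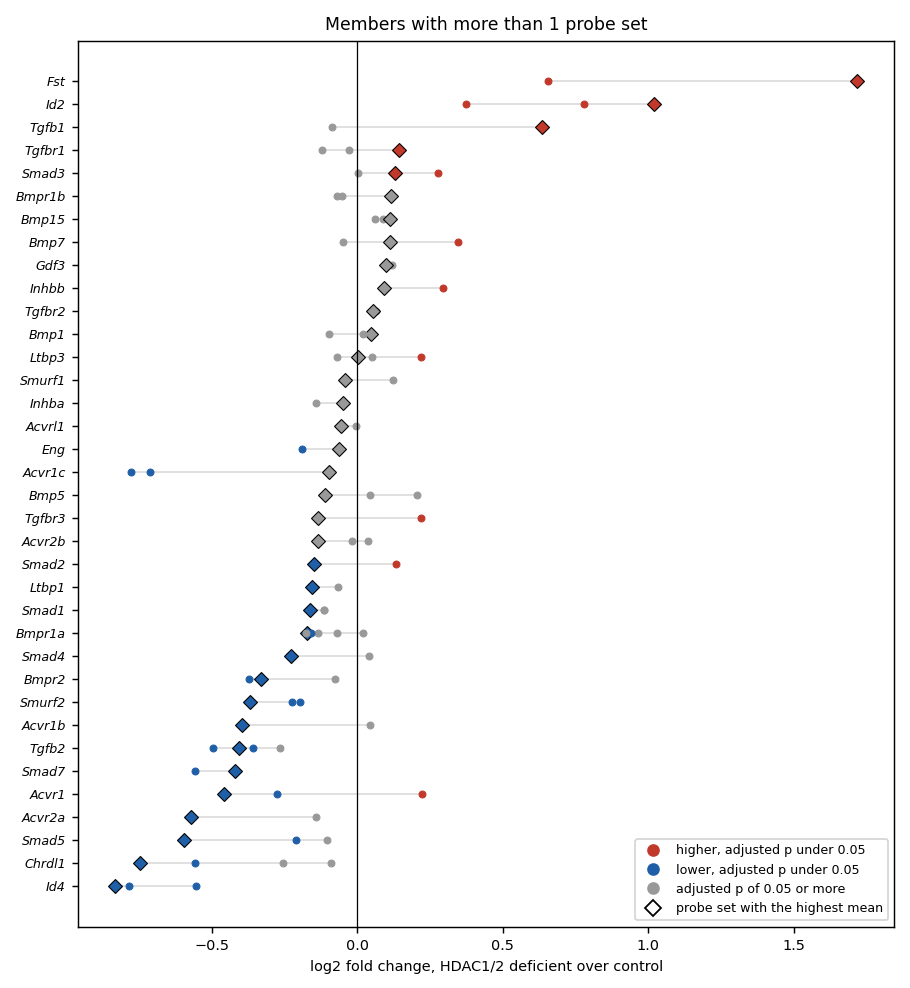
Log2 fold change (HDAC1/2 deficient over control) of every probe set of the 36 members that have more than 1, with diamonds for the probe set of the highest mean, and red, blue and grey for higher, lower and uncalled. All probe sets shared the call in 15 members, and Acvr1 and Smad2 had probe sets called in both directions.

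Of the 36 members with more than 1 probe set, 15 had the same call by all of them. Only Acvr1 and Smad2 had probe sets called both higher and lower. Over the 31 called members, 21 kept the call in all 6 fits without an array, among them the 4 Id genes, Fst, Grem1, Chrdl1, Smad4, Smad5, Smad6 and Smad7. The 10 that lost it at least once had absolute log2 fold changes of 0.13 to 0.30, and no member was called in the other direction.

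Other genes of the pathway, taken from 4 lists, were 62 in number, of which 9 were higher, 26 lower and 27 uncalled. Their median log2 fold change was -0.090, against -0.022 over all genes, of which 21.9% were higher and 28.4% lower. Of 20 other ligands and extracellular regulators, 10 were lower and 0 higher by limma, and also 0 were higher at an unadjusted p under 0.05 in limma or in the methods' t-test. Rgmb, a BMP coreceptor, was the most changed of these (-0.64), followed by Lefty1, an inhibitor of nodal (-0.53), and by the BMP antagonists Nbl1 (-0.45) and Dand5 (-0.43).

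The 6 measured genes of latent TGF-beta activation held the largest fall among the members and list genes. Itgb8, the beta subunit of an integrin that frees active TGF-beta, was at 6.21, 6.11 and 5.95 in HDAC1/2 deficient colon, against 8.20, 7.999 and 7.91 in control colon. Its groups were apart by more than 1 log2 unit, and it fell by 1.94 (standard error 0.093, limma adjusted p = 3.83e-06). Itgb6, which encodes the epithelial counterpart of this integrin subunit, was at 7.26, 7.10 and 6.93 in deficient and 6.61, 6.66 and 6.82 in control colon. It was higher by 0.40 (standard error 0.093, adjusted p = 0.0106). Thrombospondin-1 (Thbs1), another activator, was lower (-0.44), and Furin, the protease that cleaves the TGF-beta precursor, did not pass (-0.083, adjusted p = 0.150).

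Of the 18 intracellular regulators, 4 were higher (22.2%) and 8 lower (44.4%), against 21.9% and 28.4% over all genes. Tgif2, a corepressor that binds Smads and HDACs, was at 8.62, 8.63 and 8.56 in HDAC1/2 deficient colon, against 7.69, 7.73 and 7.93 in control colon. The groups were apart, at 0.82 (standard error 0.068, limma adjusted p = 5.23e-05). The ubiquitin ligase Wwp1 (-0.72), the Smad anchor Zfyve9 (-0.59) and the Smad phosphatase Ppm1a (-0.45) were lower. Of the 18 known target genes, 4 were higher (22.2%) and 6 lower (33.3%), close to the shares over all genes. Itgae, the TGF-beta induced integrin of intraepithelial lymphocytes, was at 8.43, 8.34 and 8.41 in deficient and 7.11, 7.05 and 7.11 in control colon. This gave 1.30 on the log2 scale (standard error 0.045, adjusted p = 8.66e-07), on the same arrays where 5 of 6 T cell markers were higher. The T cell marker without a call was Cd8a (0.079, limma adjusted p = 0.306). The cell cycle inhibitor Cdkn2b (-0.66) and the matrix protein gene Ccn2 (-0.52) were lower, and the transcription factor gene Snai2 was higher (0.46).

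**Figure D4:**
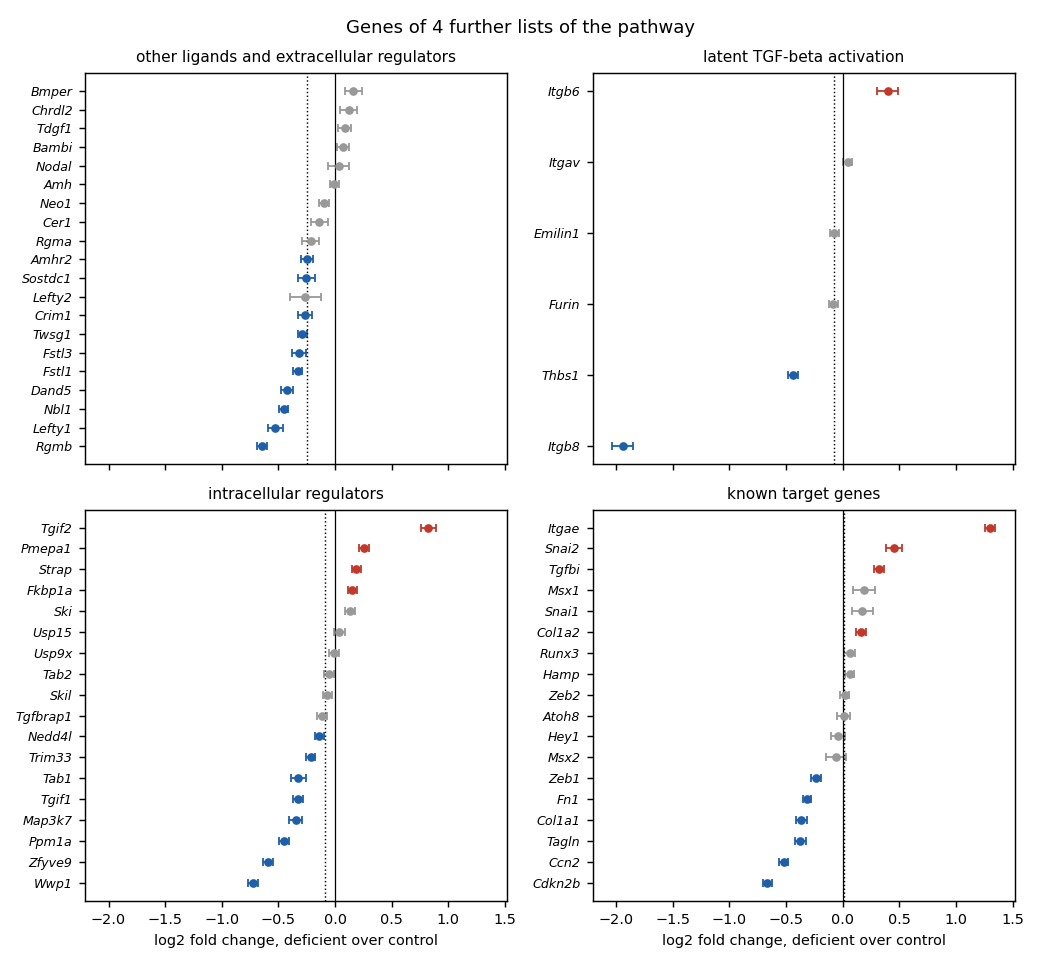
Log2 fold change (HDAC1/2 deficient over control) with its standard error for the 62 genes of 4 further pathway lists, in red, blue and grey for higher, lower and uncalled, with a dotted line at each list's median. Itgb8 at -1.94 and Itgae at 1.30 lie farthest from 0, and no ligand or extracellular regulator is red.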

How the data were processed

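By the study's methods, colon RNA of 3 HDAC1/2 deficient and 3 control mice was hybridized to Affymetrix arrays that cover the mouse genome. The deposited table holds log2 signals, 1 per probe set, made by the authors with RMA background correction and normalization in Flexarray. The submitters' processing notes list RMA. After 64 control probe sets were left out, 45037 probe sets entered a fit of HDAC1/2 deficient minus control arrays without covariates (lmFit and eBayes of limma 3.58.1, R 4.3.3), with Benjamini-Hochberg adjustment over all of them. The platform annotation gave 1 symbol for 34945 probe sets, several for 932 and no symbol for 9160, and only the first kind was used to name genes.

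The members and lists were chosen with earlier results of these data known. Values on each array were given for the 12 called members with the largest changes and no overlap and for a set of core members whatever they did, and the 4 genes with the largest change were named for each further list. Smad6 was added after its values were seen. Summed marker levels are the log2 of the sum of linear signals. Alternatives were the methods' t-test, other normalizations and filters, array weights, other uses of probe sets, the replicate number as a block and leaving out each array. Replicate numbers come from the labels. They were not taken to pair arrays. No scan date or batch was known, so none was tested. P-values measure the spread between these arrays, whose number limits the precision. Promoter windows came from RefSeq, GRCm38.p6.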

Additional observations from a re-analysis of the deposited data

How the results depend on the processing

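The 26 members that the rule named for values on each array were refitted under 16 alternatives. Of 415 values, 386 kept their direction and side of the threshold, 22 no longer passed, 3 newly passed and 4 changed sign. Tgfbr1 was -0.0023 as the mean of all its probe sets (limma adjusted p = 0.968). The log2 fold change of Nog, never called, ran from -0.13 to 0.030 when each array was left out, with 0.0088 without control replicate 2 and 0.0050 and 0.030 without deficient replicates 1 and 3. Of the 58 members, 11 were higher and 20 lower in the fit as reported, and 6 to 10 and 16 to 18 when each array was left out. Over all 18193 genes, leaving out each array gave 3502 to 3767 higher and 4614 to 4943 lower. The methods' t-test gave 9 and 21 members unadjusted or 8 and 14 after Benjamini-Hochberg adjustment. Over all genes it gave 4106 and 5307 unadjusted or 3117 and 4026 adjusted. Counting a gene by any of its probe sets gave 15 higher and 22 lower members, against 4608 and 5719 of all genes. It also gave 14 rather than 9 higher genes of the 4 further lists. Deviations from the group means correlated at 0.096, 0.064 and -0.026 for arrays of the same replicate number. With 3 arrays in each group, these values cannot decide whether arrays of the same number shared a batch. With the replicate block 7 members were higher and 19 lower, against 3835 and 4950 of all genes. Including the 4 genes with letters after the number gave 12 higher and 21 lower of 62, against 3990 and 5172 of all 18193 genes. The cause of these shifts was not tested. Low signal limits the 13 members below the lowest array median.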
